A study of Mus musculus with 12 samples.

Results

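The urea cycle and the enzymes that break down amino acids were described in mouse liver after 3 insulin derivatives. The rule named 39 genes by symbol and took for each the probe set that carries that symbol alone, which gave 35 measured members among the 19937 genes with such a probe set on the array. Gene expression was measured in 12 arrays of C57BL/6 liver, 3 per group, 6 h after a subcutaneous dose. The groups received saline, or 55 nmol/kg of Albulin, Insulin-Apo or insulin glargine. Albulin is insulin fused to albumin and Insulin-Apo couples insulin in its single-chain form to apolipoprotein A-I, both produced as recombinant proteins in bacteria, and insulin glargine is a long-acting insulin analogue. The labels give an age of 6 weeks, whereas the methods describe female C57BL/6J mice purchased at 7 weeks. All groups are wild type by the labels.

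Amino acids that are not used for protein are stripped of their nitrogen in the liver, and their carbon skeletons are burned or turned into glucose. The nitrogen is released as ammonia or passed to aspartate, and the urea cycle of the periportal hepatocyte joins both into urea, while perivenous hepatocytes trap the remaining ammonia as glutamine. Glucagon and glucocorticoids are known to raise many of these enzymes during fasting, and insulin is known to oppose them. Some amino acids have a pathway of their own and others share enzymes, so the members were grouped by pathway.

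The sequence just upstream of a gene carries much of the information for its transcription, and 27 of the 35 members had a promoter in the RefSeq table (build GRCm38.p6). The 250 bases before the transcription start are shown for 4 of the 5 genes that were called after insulin glargine against saline, because the calls against saline were most numerous there. Dpys, the remaining gene, had no entry. Capitals mark letters of a searched motif, and the sequences run 5′ to 3′ on the strand of the gene.
Agxt (chr1:93134990-93135239, plus strand): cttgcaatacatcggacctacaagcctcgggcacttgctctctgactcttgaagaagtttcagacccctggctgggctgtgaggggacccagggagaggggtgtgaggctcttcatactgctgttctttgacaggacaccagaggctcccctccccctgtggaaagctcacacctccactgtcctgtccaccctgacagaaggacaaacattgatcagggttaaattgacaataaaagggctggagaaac
Gldc (chr19:30175442-30175691, minus strand): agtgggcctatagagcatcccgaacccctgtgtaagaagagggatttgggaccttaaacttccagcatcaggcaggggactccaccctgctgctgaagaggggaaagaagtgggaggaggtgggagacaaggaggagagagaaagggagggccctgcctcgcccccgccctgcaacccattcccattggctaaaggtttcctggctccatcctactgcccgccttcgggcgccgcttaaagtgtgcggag
Aass (chr6:23132987-23133236, minus strand): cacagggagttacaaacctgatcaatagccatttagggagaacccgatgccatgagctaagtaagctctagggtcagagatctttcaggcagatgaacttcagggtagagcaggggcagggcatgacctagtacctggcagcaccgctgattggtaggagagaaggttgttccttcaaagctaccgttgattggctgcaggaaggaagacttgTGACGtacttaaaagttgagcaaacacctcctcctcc
Bckdk (chr7:127903823-127904072, plus strand): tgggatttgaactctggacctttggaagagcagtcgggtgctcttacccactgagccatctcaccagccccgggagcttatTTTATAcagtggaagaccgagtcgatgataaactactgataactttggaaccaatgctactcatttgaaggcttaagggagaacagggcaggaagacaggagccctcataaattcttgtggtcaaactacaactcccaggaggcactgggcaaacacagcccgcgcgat

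Both strands were searched for letters bound by factors of the fasting and insulin response. The cAMP response element TGACGTCA stood in none of the 28 member windows and in 1.55% of the 32851 windows of all genes. The shorter TGACG, which lies within it, was found in Aass, 37 bases before the start, and in Ftcd, against 17.8% of all windows. Neither the forkhead letters TGTTTAC, found in 3.17% of all windows, nor the C/EBP letters TTGCGCAA, found in 0.164%, were present in any member. TATAAA was found in 5 members, Bckdk among them at 169 bases before the start, and in 12.4% of all windows. Agxt and Gldc held no searched motif, and these matches are a description of letters in a short window.

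The arrays were of similar brightness, with medians from 7.70 to 7.77 on the log2 scale of the deposited values, on which a difference of 1 is a doubling. One array stood apart. The third insulin glargine array had a mean correlation of 0.990 with its group, against 0.993 for the other two and 0.995 to 0.997 in the other groups, and received a quality weight of 0.203. Counts of members called with insulin glargine are therefore also given without it, but the differences of single genes include it. The summed level of 6 hepatocyte markers lay between 17.10 and 17.19 in every array, and none of them was called in any comparison (limma, at most 1 at an unadjusted p under 0.05 in each). At an adjusted p under 0.05 in limma, 1 of the 6 was higher after Albulin than after saline. Likewise, 1 was lower after insulin glargine than after Albulin, and 1 than after Insulin-Apo. The summed level of 8 neutrophil markers was 10.23 to 10.44 after saline, 10.81 to 10.98 after Albulin, 10.62 to 10.85 after Insulin-Apo and 10.09 to 10.25 after insulin glargine. After Albulin, 3 of these 8 were called higher than saline, and whether this plays a part in the results was not tested. Of 10 Kupffer cell and macrophage markers, 9 were positive against saline after Albulin and 9 after Insulin-Apo, with medians of 0.14 and 0.27. Marco was called higher after Insulin-Apo by 0.93, a call lost in 10 of 20 alternative settings. The summed level of the 10 markers was 13.73 to 14.13 after saline, 14.10 to 14.34 after Albulin, 13.81 to 14.43 after Insulin-Apo and 13.39 to 14.15 after insulin glargine. The summed level of 4 B cell markers was 9.21 to 9.32, 9.46 to 9.83, 9.24 to 9.35 and 9.05 to 9.10 in the same order of groups. Of 8 sinusoidal endothelial markers, 7 were positive against saline after Albulin, 7 after Insulin-Apo and 3 after insulin glargine. Their medians were 0.20, 0.20 and -0.03, and none was called against saline. Among 5 measured genes that insulin is known to control, namely Igfbp1, Pck1, G6pc, Irs2 and Srebf1, none was called in any comparison by limma. At an unadjusted p under 0.05, 2 of these 5 were higher than saline after Albulin, 1 was higher after Insulin-Apo, and 2 were higher and 1 lower after insulin glargine. Over all probe sets, 8.98% were higher and 9.08% lower at that unadjusted p after Albulin, 9.13% and 8.28% after Insulin-Apo, and 10.6% and 11.9% after insulin glargine. At an adjusted p under 0.05 in limma, 1 of the 5 genes was higher and 1 lower after insulin glargine, beside 10.9% of all probe sets. None passed it after either fusion protein. These counts do not separate genes that insulin raises from genes that it lowers.

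A probe set was called when B, the log odds that it differs, was over 0 in limma, and the adjusted p was taken over all probe sets. All 35 members passed the filter on low values, the dimmest member value on any array being 8.65. Against saline, 1 member was called lower after Albulin and 2 were lower after Insulin-Apo, while 3 were higher and 2 lower after insulin glargine. Over all probe sets, 1.37% were called higher and 1.04% lower after Albulin, 1.34% and 0.804% after Insulin-Apo, and 2.24% and 2.6% after insulin glargine. At an adjusted p under 0.05 in limma, 2 members passed after Albulin, where 4.69% of all probe sets did, 5 passed after Insulin-Apo, against 3.73%, and 10 passed after insulin glargine, against 10.9%. In bulk liver, fewer cells of a type and less RNA per cell cannot be told apart.

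**Figure D1:**
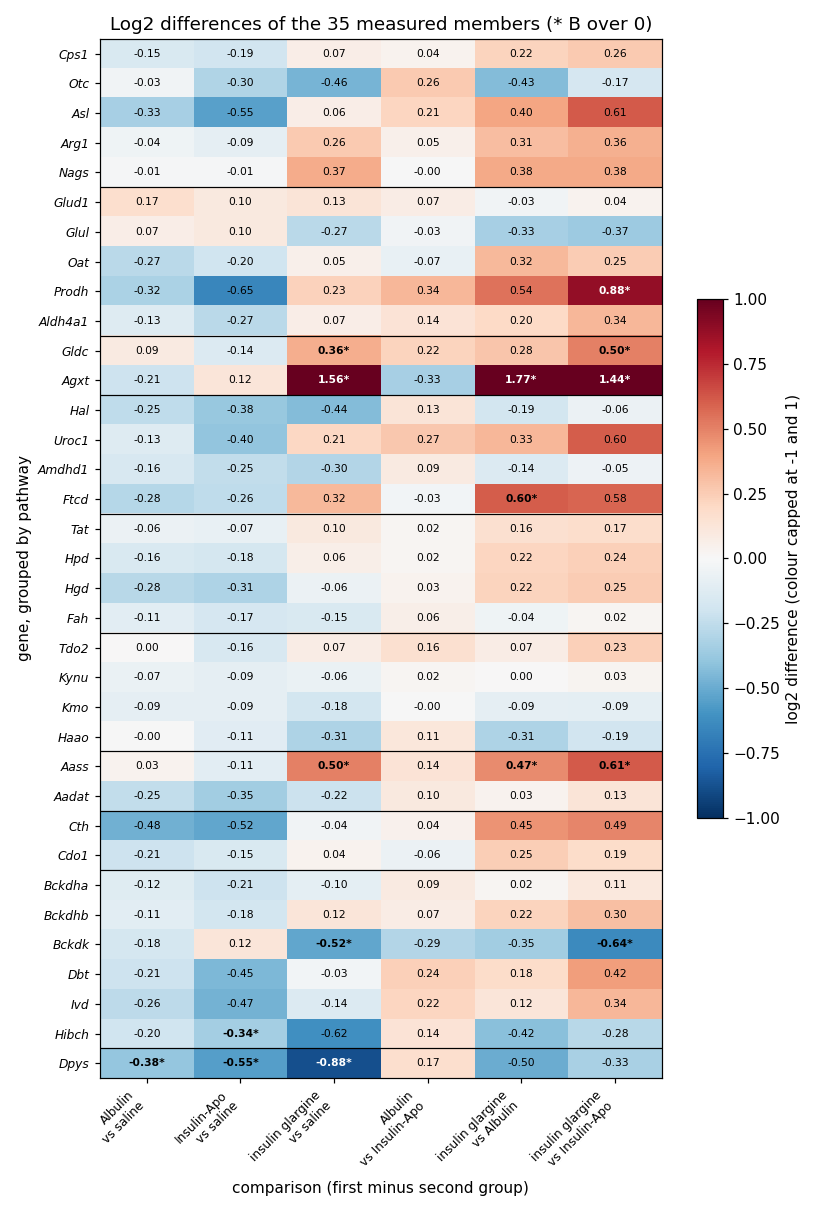
Log2 differences of the 35 measured members (rows, grouped by pathway) in the 6 comparisons (columns, first group minus second), with the colour capped at -1 and 1 and a star for B over 0. The columns for Albulin and Insulin-Apo against saline are mostly blue, with medians of -0.15 and -0.19, whereas the column for insulin glargine holds both colours and Agxt, at 1.56, is its highest value.

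After either fusion protein the members' differences from saline were small and mostly negative. The difference from saline was negative for 30 of 35 members after Albulin, with a median of -0.15 on the log2 scale, and for 31 of 35 after Insulin-Apo, with a median of -0.19. Over all probe sets tested the medians were 0.0026 and -0.017. After insulin glargine 17 of 35 members were negative and the median was 0.04, against -0.00033 over all probe sets. The 3 comparisons share the saline arrays, so a high level in those arrays would enter each of them. The arrays of the 2 groups did not overlap for 19 members after Albulin, 16 of them lower than saline, for 22 after Insulin-Apo, 21 of them lower, and for 16 after insulin glargine, 8 of them lower. Over all probe sets, the groups did not overlap in 23.3% after Albulin, 11.7% being lower, in 23.1% after Insulin-Apo, 12.7% being lower, and in 24.8% after insulin glargine, 13.1% being lower.

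The enzymes of the urea cycle itself were called in none of the 6 comparisons. It was measured through 5 of its 6 genes, since both probe sets of Ass1 carry several symbols. At an unadjusted p under 0.05 in limma, 1 of the 5 was lower than saline after Albulin, 3 were lower after Insulin-Apo, and 2 were higher and 1 lower after insulin glargine, beside the 8.28% to 11.9% of all probe sets given above for each direction. Cps1, which forms carbamoyl phosphate from ammonia and is the entry to the cycle, was measured at 14.47, 14.49 and 14.52 after saline, 14.35, 14.36 and 14.30 after Albulin, 14.35, 14.17 and 14.37 after Insulin-Apo, and 14.55, 14.63 and 14.49 after insulin glargine. All 6 arrays of the fusion proteins thus lay below the saline arrays, by 0.15 and 0.19 on average (adjusted p = 0.253 and 0.155, limma), and the insulin glargine arrays overlapped with saline. Otc, which makes citrulline in the mitochondrion, was measured at 12.69, 13.02 and 12.82 after saline, 12.81, 12.89 and 12.73 after Albulin, 12.43, 12.44 and 12.77 after Insulin-Apo, and 12.68, 12.22 and 12.23 after insulin glargine. One insulin glargine array, at 12.68, lay just below the lowest saline array and the other two further below, with a log2 difference of -0.46 (95% confidence interval -0.76 to -0.17, adjusted p = 0.0438 in limma, B below 0).

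Arg1, the arginase that releases urea, showed the opposite sign. Its values were 13.75, 13.80 and 13.77 after saline, 13.75, 13.81 and 13.64 after Albulin, 13.80, 13.53 and 13.72 after Insulin-Apo, and 14.01, 14.07 and 14.03 after insulin glargine. The 3 insulin glargine arrays were above the other 9, with log2 differences of 0.26 from saline, 0.31 from Albulin and 0.36 from Insulin-Apo (adjusted p = 0.0467, 0.0267 and 0.0106, limma), none of which was called. Nags, whose product switches Cps1 on, was likewise higher in all insulin glargine arrays (11.36 to 11.62) than in the other 9 (10.95 to 11.27), and its difference from saline was 0.37 (adjusted p = 0.0219, limma) without a call. Asl, which splits argininosuccinate, differed from saline by -0.33 after Albulin, -0.55 after Insulin-Apo and 0.06 after insulin glargine.

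Among the enzymes of glutamate, glutamine, ornithine and proline, Prodh was the called gene. Prodh, proline dehydrogenase, starts the breakdown of proline. Its levels were 11.47, 11.78 and 11.45 after saline, 11.27, 11.22 and 11.27 after Albulin, 10.88, 10.52 and 11.36 after Insulin-Apo, and 11.70, 11.73 and 11.97 after insulin glargine. It was higher after insulin glargine than after Insulin-Apo by 0.88 on the log2 scale (95% confidence interval 0.52 to 1.24, adjusted p = 0.00513, limma), and the 3 Insulin-Apo arrays spread from 10.52 to 11.36. The difference from saline was 0.23 after insulin glargine, with overlapping arrays, and -0.65 after Insulin-Apo (adjusted p = 0.0617, limma). The call was lost without the third insulin glargine array, and also without the first or the second Insulin-Apo array or the second insulin glargine array.

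Glul, glutamine synthetase, is the ammonia trap of the hepatocytes around the central vein. Its levels were 13.54, 13.57 and 13.60 after saline, 13.63, 13.60 and 13.68 after Albulin, 13.60, 13.67 and 13.73 after Insulin-Apo, and 13.06, 13.28 and 13.57 after insulin glargine. At the probe set used, the third insulin glargine array sat among the saline arrays and the others below them. The log2 difference of -0.27 (adjusted p = 0.132, limma) was not called. Without the third array Glul was called lower in all 3 comparisons of insulin glargine. A second probe set of Glul, the only further one of any member, had group means of 13.56 after saline, 13.65 after Albulin, 13.67 after Insulin-Apo and 13.27 after insulin glargine. Its SDs were 0.026 after saline and 0.092 after insulin glargine, against 0.030 and 0.25 for the probe set used. The wide spread of the insulin glargine arrays was thus not shared by the second probe set. The other 3 measured genes of the group, Glud1, Oat and Aldh4a1, were called in no comparison, and Glud1, which frees ammonia from glutamate, was the highest of the 35 differences after Albulin at 0.17.

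Agxt and Gldc, the 2 measured genes of serine, glycine and glyoxylate, were both higher after insulin glargine. Agxt, which turns glyoxylate into glycine in the peroxisome of the hepatocyte, gave the largest difference of any member. It was measured at 11.55, 11.96 and 11.68 after saline, 11.78, 11.50 and 11.28 after Albulin, 11.49, 12.42 and 11.63 after Insulin-Apo, and 13.29, 12.99 and 13.57 after insulin glargine. The lowest insulin glargine array was above the highest of the other 9, which was the second Insulin-Apo array. Agxt rose by 1.56 on the log2 scale against saline, a 2.94-fold change (95% confidence interval of the log2 difference 1.07 to 2.04, adjusted p = 0.000901, limma). It differed from saline by -0.21 after Albulin and 0.12 after Insulin-Apo, with overlapping arrays in both comparisons.

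Gldc, the decarboxylase of the glycine cleavage system, moved less but within narrow groups. Levels were 11.83, 11.80 and 11.84 after saline, 11.97, 11.87 and 11.90 after Albulin, 11.79, 11.57 and 11.70 after Insulin-Apo, and 12.21, 12.21 and 12.15 after insulin glargine. The 4 groups did not overlap, in the order Insulin-Apo, saline, Albulin and insulin glargine. Gldc rose by 0.36 against saline after insulin glargine (95% confidence interval 0.21 to 0.52, adjusted p = 0.00524, limma), whereas the differences of 0.09 after Albulin and -0.14 after Insulin-Apo were not called. The call against saline was lost when any saline array, or the first or the second insulin glargine array, was left out. Amt, the partner of Gldc in glycine cleavage, went the other way and fell by 0.69 after insulin glargine (adjusted p = 0.000602, limma). Amt was no member and was named after its values were seen.

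**Figure D2:**
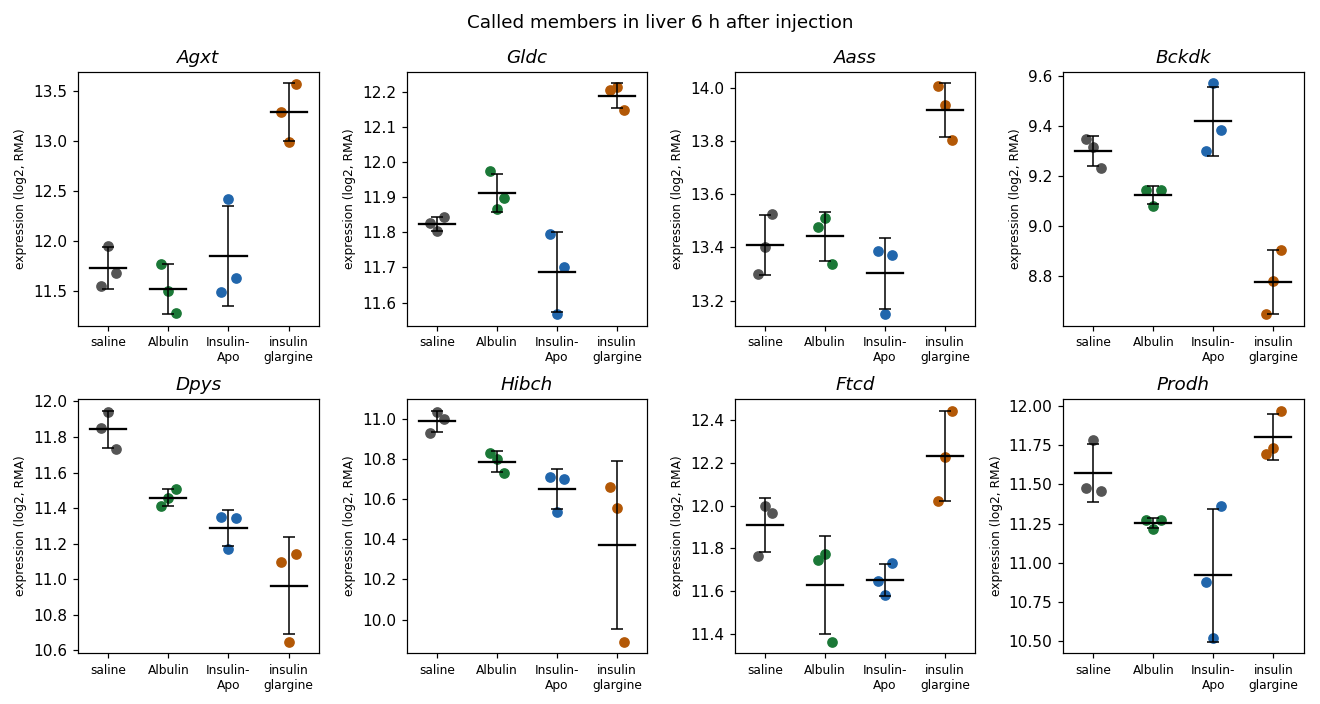
Expression (log2, RMA) of the 8 members called in at least 1 comparison, by group, with a point for each array, a bar for the mean and whiskers for the SD (n = 3). Agxt lies between 12.99 and 13.57 in the insulin glargine arrays and at most at 12.42 in the others, and Dpys steps down from saline to insulin glargine.

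Lysine enters its main route of breakdown through Aass, which was higher after insulin glargine than in every other group. Aass was measured at 13.30, 13.40 and 13.53 after saline, 13.48, 13.51 and 13.34 after Albulin, 13.39, 13.15 and 13.37 after Insulin-Apo, and 14.00, 13.93 and 13.80 after insulin glargine. It rose by 0.50 against saline, a 1.42-fold change (95% confidence interval of the log2 difference 0.31 to 0.70, adjusted p = 0.00367, limma), while it differed by 0.03 after Albulin and by -0.11 after the other fusion protein. The first or the second saline or insulin glargine array, left out, ended this call. Aadat, which acts further along the same route, was not called in any comparison.

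Bckdk, the kinase that switches off the branched-chain ketoacid dehydrogenase, was the member of the branched-chain group called lower after insulin glargine. It was measured at 9.35, 9.32 and 9.23 after saline, 9.15, 9.08 and 9.14 after Albulin, 9.30, 9.57 and 9.39 after Insulin-Apo, and 8.65, 8.78 and 8.90 after insulin glargine. Bckdk fell by 0.52 against saline (adjusted p = 0.00201, limma), and the 3 insulin glargine arrays lay under the other 9. The Albulin arrays were also under all saline arrays, by 0.18 (adjusted p = 0.25, limma), and the Insulin-Apo arrays overlapped with saline. The subunits of the dehydrogenase, Bckdha, Bckdhb and Dbt, differed from saline by -0.10, 0.12 and -0.03 after insulin glargine and were not called.

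Hibch, which acts further down in valine breakdown, was called lower after Insulin-Apo. Values of 10.93, 11.03 and 10.9997 were measured after saline, 10.83, 10.80 and 10.73 after Albulin, 10.71, 10.53 and 10.70 after Insulin-Apo, and 10.66, 10.56 and 9.89 after insulin glargine. Every treated array was below every saline array. Hibch fell by 0.34 after Insulin-Apo (95% confidence interval -0.49 to -0.19, adjusted p = 0.0245, limma), a call that was lost when any 1 of the 9 arrays was left out. The difference was -0.20 after Albulin and -0.62 after insulin glargine (adjusted p = 0.144 and 0.0205, limma), and the latter was called without the first insulin glargine array or without the third, the low one. Dbt and Ivd, with -0.45 and -0.47 after Insulin-Apo, were not called.

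Dpys, which opens the ring of dihydropyrimidines and so belongs to the breakdown of pyrimidine bases, was the single member called against saline after all 3 derivatives. It was measured at 11.85, 11.94 and 11.73 after saline, 11.41, 11.46 and 11.51 after Albulin, 11.35, 11.17 and 11.35 after Insulin-Apo, and 11.10, 10.65 and 11.14 after insulin glargine. The groups did not overlap and followed that order downwards. Dpys fell by 0.38 after Albulin (95% confidence interval -0.55 to -0.22, adjusted p = 0.0187, limma), fell by 0.55 after Insulin-Apo (-0.72 to -0.39, adjusted p = 0.00451) and fell by 0.88 after insulin glargine (-1.13 to -0.63, adjusted p = 0.000549). The call after Albulin was lost in 10 of the 20 alternative settings, leaving out any Albulin array among them, while the other calls held in all 20 and 22. Dpys differed by 0.17 between Albulin and Insulin-Apo (0.0019 to 0.34, adjusted p = 0.364, limma), which was not called.

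The 4 histidine genes take histidine to glutamate and a folate-bound carbon, and Ftcd, which hands that carbon to folate, was the called one. It was measured at 11.76, 11.9997 and 11.96 after saline, 11.74, 11.77 and 11.36 after Albulin, 11.65, 11.58 and 11.73 after Insulin-Apo, and 12.02, 12.23 and 12.44 after insulin glargine. The insulin glargine arrays were the 3 highest. Ftcd was higher after insulin glargine than after Albulin by 0.60 (95% confidence interval 0.33 to 0.88, adjusted p = 0.00917, limma), and was no longer called in 13 of 22 alternative settings, among them leaving out the third insulin glargine array. The difference from saline was 0.32 (adjusted p = 0.137, limma). Hal, the first enzyme of the route, differed from saline by -0.25, -0.38 and -0.44 after Albulin, Insulin-Apo and insulin glargine and was not called.

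The pathways of tyrosine (Tat, Hpd, Hgd and Fah), of tryptophan (Tdo2, Kynu, Kmo and Haao) and of the sulfur amino acids (Cth and Cdo1) held no called gene in any comparison in limma. At an unadjusted p under 0.05 against saline, 4 of these 10 genes were lower after Albulin, 5 after Insulin-Apo and 2 after insulin glargine, and none was higher, where 9.08%, 8.28% and 11.9% of all probe sets were lower. Tat, a classical target of glucocorticoids and glucagon, differed from saline by -0.06 after Albulin, -0.07 after Insulin-Apo and 0.10 after insulin glargine. Cth, which makes cysteine from cystathionine, was measured at 13.86, 14.01 and 14.00 after saline, 13.53, 13.59 and 13.30 after Albulin, 13.37, 13.24 and 13.68 after Insulin-Apo, and 14.11, 14.00 and 13.65 after insulin glargine. Both fusion protein groups lay below saline, by 0.48 and 0.52 (adjusted p = 0.0354 and 0.0302, limma, B below 0), and the insulin glargine arrays overlapped with saline. Cth was named here after its values were seen. Haao, which acts late in the kynurenine route, was lower in all insulin glargine arrays than in saline, by 0.31 (adjusted p = 0.0333, limma), without a call.

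The insulin derivatives were next compared with each other at the same dose and time, which gives 3 pairs over the 35 members. Between Albulin and Insulin-Apo no member was called, where 0.25% of all probe sets were called higher and 0.389% lower. None passed an adjusted p under 0.05 in limma, which 0.139% of all probe sets did, and at an unadjusted p under 0.05 there were 5 higher and 1 lower, beside 6.44% and 7.11% of all probe sets. The smallest adjusted p belonged to Bckdk, lower after Albulin by 0.29 (95% confidence interval -0.46 to -0.13, adjusted p = 0.151, limma), followed by Gldc, higher by 0.22 (0.07 to 0.38, adjusted p = 0.208). In both genes the arrays of the 2 groups did not overlap. The 95% confidence intervals of the 35 differences ran from -0.80 to 0.71, so that differences of up to that size were not resolved for the most variable genes. The median difference was 0.07 and 27 of 35 members were positive, against a median of 0.019 over all probe sets.

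More members were called between insulin glargine and either fusion protein. Against Albulin, 3 members were called higher and none lower, where 2.01% and 2.35% of all probe sets were. Against Insulin-Apo, 4 were higher and 1 lower, where 1.96% and 2.88% were. An adjusted p under 0.05 in limma was reached by 11 members against Albulin, 8 of them higher, beside 8.94% of all probe sets, and by 16 against Insulin-Apo, 14 of them higher, beside 10.8%. The medians of the members were 0.18 and 0.24, and those of all probe sets -0.0064 and 0.021. Without the third insulin glargine array, 3 members were called higher and 4 lower against saline, 2 higher and 2 lower against Albulin, and 5 higher and 2 lower against Insulin-Apo. No shares over all probe sets are given for that fit, and those above for insulin glargine come from the fit of all 12 arrays. The neutrophil markers moved with these comparisons, 6 of 8 being called lower against Albulin and 4 of 8 against Insulin-Apo. Each of the calls against Albulin was lost in at most 5 of 22 alternative settings. Against Insulin-Apo, those of S100a8, S100a9 and Cxcr2 were lost in 13, 12 and 13 of 22, and that of Csf3r held in all. Of the 4 B cell markers, Cd79b and Ms4a1 were called lower against Albulin, and of the 10 Kupffer cell and macrophage markers, Marco and Cd68 were called lower against Insulin-Apo. Of 8 sinusoidal endothelial markers, Kdr was called lower against both, though 4 of the 8 were positive in each comparison. The call of Kdr held in all 22 alternative settings against Albulin and was lost in 4 of 22 against Insulin-Apo. Against Insulin-Apo, the cholangiocyte marker Krt19 was called higher (lost in 11 of 22) and the T cell and NK cell marker Nkg7 lower (lost in 6 of 22). The part of these markers in the results was not tested.

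The genes that set insulin glargine apart were largely those already described. Agxt was higher by 1.77 than after Albulin (95% confidence interval 1.28 to 2.25, adjusted p = 0.000377, limma) and by 1.44 than after Insulin-Apo (0.95 to 1.92, adjusted p = 0.00151). Aass was higher by 0.47 and 0.61 (adjusted p = 0.00581 and 0.00113, limma). Gldc was higher than after Insulin-Apo by 0.50 (adjusted p = 0.000742, limma), and its difference of 0.28 from Albulin was not called. Bckdk was lower than after Insulin-Apo by 0.64 on the log2 scale (-0.83 to -0.45, adjusted p = 0.00057, limma), and its difference of -0.35 from Albulin was not called. The call of Aass against Albulin was lost without the first or the third Albulin array, or the first or the second insulin glargine array.

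**Figure D3:**
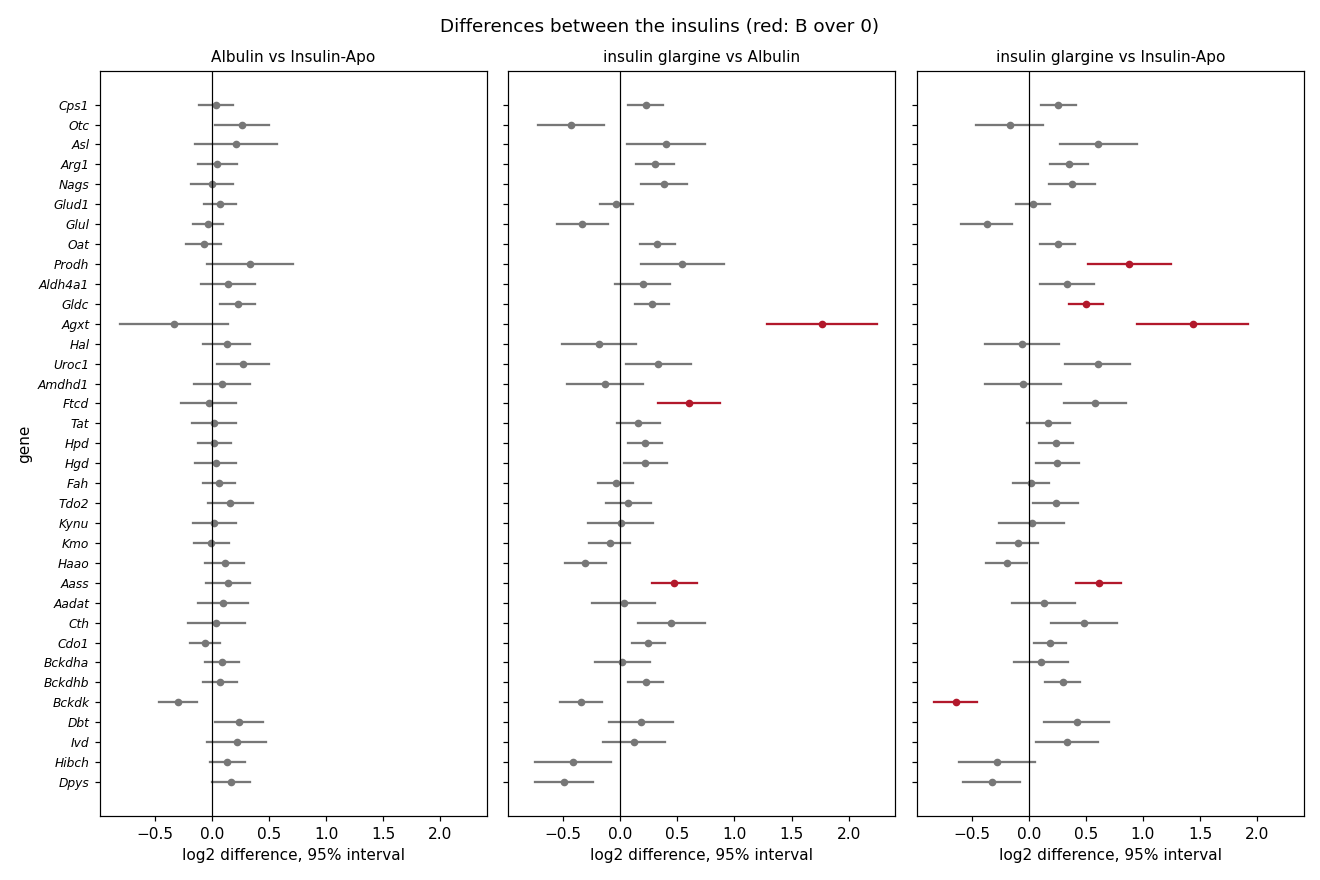
Log2 differences between the insulin derivatives for the 35 members, with 95% confidence intervals from limma and calls (B over 0) in red. No interval is red between Albulin and Insulin-Apo, and in the panels of insulin glargine the points lie mostly to the right of 0, with medians of 0.18 and 0.24.

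The wider pathway was read from 50 further genes of amino acid and pyrimidine breakdown, of which 48 were measured. Against saline, 2 were called lower after Albulin, 6 lower after Insulin-Apo, and 3 higher and 6 lower after insulin glargine. Over all probe sets, 1.04% were called lower after Albulin, 0.804% lower after Insulin-Apo, and 2.24% higher and 2.6% lower after insulin glargine. Medians of the list were -0.15, -0.20 and -0.18 on the log2 scale, against 0.0026, -0.017 and -0.00033 over all probe sets. The median of the wider list was thus below 0 after insulin glargine too, where that of the members was 0.04. The 3 higher genes were Slc25a15, Slc25a22 and Cbs, the last of which rose by 0.40 and was named after its value was seen.

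Called genes of this list included carriers of the inner mitochondrial membrane for ornithine and for glutamate. Slc25a15, which exchanges ornithine for citrulline, was measured at 12.63, 12.80 and 12.76 after saline, 12.40, 12.46 and 12.23 after Albulin, 12.61, 12.59 and 12.69 after Insulin-Apo, and 13.57, 13.40 and 13.29 after insulin glargine. It rose by 0.69 against saline after insulin glargine (adjusted p = 0.000422, limma), and was higher than after Albulin by 1.06 and than after Insulin-Apo by 0.79. Slc25a22, a glutamate carrier, was measured at 11.70, 11.54 and 11.51 after saline, 10.85, 11.10 and 11.08 after Albulin, 11.71, 11.57 and 11.52 after Insulin-Apo, and 12.26, 12.16 and 12.30 after insulin glargine. It fell by 0.58 after Albulin (95% confidence interval -0.77 to -0.38, adjusted p = 0.00493, limma) and rose by 0.66 after insulin glargine (0.46 to 0.85, adjusted p = 0.000601), while Insulin-Apo differed from saline by 0.017. Slc25a22 was the one gene of the wider list called between the 2 fusion proteins, lower after Albulin than after Insulin-Apo by 0.59 (-0.79 to -0.40, adjusted p = 0.0357, limma). Each of these calls of Slc25a15 and Slc25a22 held in every alternative setting.

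The aminotransferases Got1 and Gpt, which move amino groups of aspartate and alanine, were higher after insulin glargine than after either fusion protein. Got1 was measured at 14.15, 14.24 and 14.10 after saline, 13.57, 13.60 and 13.65 after Albulin, 13.94, 13.35 and 13.71 after Insulin-Apo, and 14.51, 14.40 and 14.28 after insulin glargine. It was higher by 0.79 than after Albulin and by 0.73 than after Insulin-Apo (adjusted p = 0.00132 and 0.00215, limma). For Gpt these differences were 0.83 and 0.90 (adjusted p = 0.00554 and 0.00317, limma), and Gpt fell by 0.70 after Insulin-Apo against saline (adjusted p = 0.0218). The call of Gpt against saline was lost in 9 of 20 alternative settings. The call against Albulin was lost in 6 of 22, including without the first or the third insulin glargine array or the first or the third Albulin array, and that against Insulin-Apo without the second Insulin-Apo array.

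Other genes of the list were called lower after 1 or 2 of the derivatives. Ido2, an enzyme that opens the ring of tryptophan, was measured at 11.21, 11.37 and 11.31 after saline, 10.73, 10.72 and 10.61 after Albulin, 10.54, 9.92 and 10.54 after Insulin-Apo, and 9.55, 9.42 and 8.54 after insulin glargine. It fell by 0.96 after Insulin-Apo (adjusted p = 0.0054, limma) and fell by 2.13 after insulin glargine (adjusted p = 0.00013), and the difference of -0.61 after Albulin was not called. Over the alternative settings, the difference of Ido2 after insulin glargine ranged from -2.32 to -1.81. Ddo, which oxidizes D-aspartate, fell by 1.12 after insulin glargine (adjusted p = 0.000114, limma). Upb1, which acts after Dpys in pyrimidine breakdown, fell by 0.40 after Albulin (adjusted p = 0.0213, limma, lost in 11 of 20 alternative settings) and fell by 0.53 after insulin glargine (adjusted p = 0.00271), with -0.27 after Insulin-Apo. After Insulin-Apo the genes with the smallest p beside Ido2 were Afmid, which fell by 0.97, Pipox, which fell by 0.44, and Shmt1, which fell by 0.59 (adjusted p = 0.00718, 0.00941 and 0.0158, limma).

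**Figure D4:**
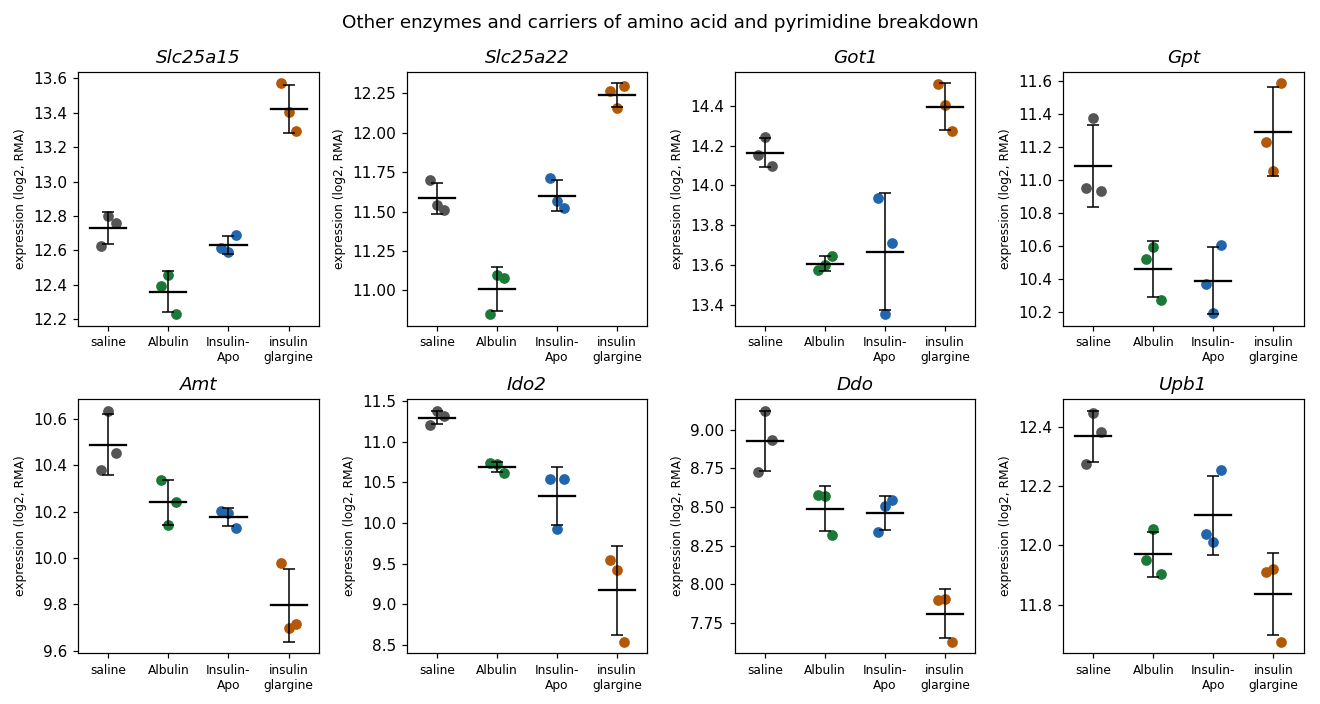
Expression (log2, RMA) of 8 genes of the wider list by group, with a point for each array, a bar for the mean and whiskers for the SD (n = 3). Slc25a22 is lowest in the Albulin arrays (10.85 to 11.10) and highest in the insulin glargine arrays (12.16 to 12.30), and Ido2 falls from 11.21 to 11.37 after saline to 8.54 to 9.55 after insulin glargine.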

How the data were processed

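The 12 liver arrays held 3 samples each of saline, Albulin, Insulin-Apo and insulin glargine. The authors used an Affymetrix whole-transcript array (Mouse Gene 1.0 ST) with RMA background correction and normalization, so each deposited value, of 28213 probe sets, is on a log2 scale. Neither the version of RMA nor the annotation build was given in the sources used here. In the platform annotation 21640 probe sets had 1 symbol, 1321 had several and 5252 had no symbol, and those with several named no gene. Gls2, Sds and Sdsl were not analysed here. Probes differ in response, so levels were not compared between genes. A summed level is the log2 of the sum of the unlogged values of a list.

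A probe set was tested when 2 or more arrays of a group exceeded 5. These were 25989 in a fit of 9 arrays (no insulin glargine) and 26027 in a fit of all 12, which served the comparisons with insulin glargine. The test was limma 3.58.1 in R 4.3.3, with a prior proportion of 0.01, a call at B over 0 as in the methods, and Benjamini-Hochberg adjustment over all probe sets. It was tested on simulated data before use. Figures were drawn with matplotlib 3.10.9. Nothing in the sources says that the arrays come from separate mice, so the p values describe the spread among arrays only, and 3 arrays per group limit the precision.

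Values in every array are given for members called in a comparison, for the 2 with the smallest p where none was called, and for Cps1, Otc, Arg1 and Glul. From the other lists, up to 4 called genes with the smallest p in a comparison are named. The members and lists were chosen with earlier results of these data known. The alternatives were no filter or a value over 6, median centring, a further quantile normalization, a block for the replicate number, an intensity trend, array quality weights, all 12 arrays in each fit, only the groups compared, an adjusted p under 0.05, averaging a gene over its probe sets, and leaving out each array.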

Additional observations from a re-analysis of the deposited data

How the results depend on the processing

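Of the 16 calls of members, 9 held in every alternative and none of the 16 changed sign. The 9 were Agxt in all 3 comparisons of insulin glargine, Bckdk against saline and Insulin-Apo, Dpys after Insulin-Apo and after insulin glargine, and Gldc and Aass against Insulin-Apo. After Albulin, 1 member was called, and 0 with all 12 arrays fitted and 2 at an adjusted p under 0.05. After Insulin-Apo there were 2, which became 1 with arrays centred on their medians, 1 with all 12 arrays, 1 with only the groups compared, 4 with an intensity trend and 5 at an adjusted p under 0.05. At that adjusted p the 5, 3 and 5 calls of insulin glargine against saline, Albulin and Insulin-Apo became 10, 11 and 16, and array quality weights gave 7 against Albulin. Leaving out an array gave 0 to 1 calls after Albulin, 1 to 5 after Insulin-Apo, 0 between them, and 3 to 7, 1 to 4 and 4 to 7 for insulin glargine against saline, Albulin and Insulin-Apo. It was 5 after Insulin-Apo when the third array of that group was left out. The count against saline after insulin glargine was 3 without the first or the second saline array or the second insulin glargine array, and that against Albulin was 1 without the first or the third Albulin array or the second insulin glargine array. Over the alternatives, the median difference of the members from saline ranged from -0.17 to -0.10 after Albulin, from -0.22 to -0.17 after Insulin-Apo and from -0.017 to 0.082 after insulin glargine. It ranged from 0.015 to 0.12 for Albulin against Insulin-Apo, and from 0.13 to 0.21 and 0.18 to 0.28 for insulin glargine against Albulin and Insulin-Apo. Of the 34 calls of the wider lists, 15 held in every alternative and none changed sign. Shares over all probe sets are not given for the alternatives, so a changed count is not read as particular to the members. Where a call was lost, the cause was not tested. The 3 arrays per group limit what can be called.

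Arrays with the same replicate number did not deviate together, with correlations from -0.27 to 0.15 over 18 pairs. Of the 12 arrays, 3 were closest to an array of their own number. No pairing by number was seen, but so few arrays per group cannot establish that there is none. With the replicate number as a block, the calls after Albulin became 0, those after Insulin-Apo 1 and those of insulin glargine against Albulin 1, and the other 3 counts stayed at 0, 5 and 5.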

Other observations

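Of 12 measured regulators of amino acid breakdown, Foxo1 was the only one called. Foxo1, a forkhead factor that insulin is known to keep out of the nucleus, was measured at 10.56, 10.19 and 10.38 after saline, 9.996, 10.06 and 10.60 after Albulin, 10.67, 9.78 and 10.14 after Insulin-Apo, and 11.42, 11.28 and 11.30 after insulin glargine. All insulin glargine arrays were above the other 9. Foxo1 rose by 0.95 against saline (adjusted p = 0.00895, limma, lost in 11 of 22 alternative settings), and was higher by 1.11 than after Albulin and by 1.13 than after Insulin-Apo. Klf15, a factor that drives amino acid breakdown in fasting, differed from saline by -0.47 after Albulin, -0.43 after Insulin-Apo and -0.06 after insulin glargine (adjusted p = 0.0292, 0.0482 and 0.822, limma) and was not called. Ppargc1a, a coactivator of the fasting response, differed by -0.98, -0.34 and 0.34 (adjusted p = 0.055, 0.547 and 0.666, limma). It had 2 probe sets of its own, and these values come from the one with the higher mean. Klf15 and Ppargc1a were named after their values were seen.

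Glul marks the hepatocytes nearest the central vein, and 10 further genes of that zone were read beside it. Lgr5, a receptor of the Wnt pathway in those cells, was the called one, at 9.34, 8.93 and 9.31 after saline, 9.96, 9.38 and 9.66 after Albulin, 9.14, 9.70 and 9.47 after Insulin-Apo, and 7.75, 7.92 and 7.65 after insulin glargine. It fell by 1.42 against saline (95% confidence interval -1.78 to -1.05, adjusted p = 0.000273, limma), a call held in all 22 alternative settings. The summed level of the 10 genes ranged from 16.00 to 16.03 after saline and from 15.89 to 16.01 after insulin glargine. Their median difference after insulin glargine was -0.04 against saline, with 3 of 10 positive. It was 0.07 against Albulin and 0.03 against Insulin-Apo, with 7 and 6 of 10 positive. Among 7 measured genes of the periportal zone, Ctsc was called, higher by 0.46 after Albulin and 0.50 after Insulin-Apo (adjusted p = 0.00493 and 0.00473, limma), and lower after insulin glargine than after either. The medians of these 7 genes against saline were -0.14 after Albulin and -0.13 after Insulin-Apo, with 2 of 7 positive in each. For insulin glargine, the median was -0.12 against Albulin, with 3 of 7 positive, and 0.013 against Insulin-Apo, with 5 of 7 positive.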
